A study of Homo sapiens with 24 samples.

Results

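HT29 cells, an established human colon adenocarcinoma line, were exposed for 6 h to TRAIL together with the culture supernatant of the dairy bacterium Propionibacterium freudenreichii (TRAIL+SN), and their transcripts were compared with those of untreated HT29 cells (NT). Samples were taken by their labels alone: the 4 TRAIL+SN and the 4 NT arrays, which are 8 of the 24 arrays of the study. TRAIL, TNF-related apoptosis-inducing ligand, was used at 100 ng/ml with 2 µg/ml of anti-Flag antibody, and the supernatant was diluted by a factor of 2. The other groups, with 4 arrays each, had received SN alone, TRAIL alone with the antibody, a mixture of 30 mM propionate and 15 mM acetate (C3/C2) that stands for the main acids of the diluted supernatant, or TRAIL with that mixture (TRAIL+C3/C2). All groups are cultures of 1 cancer cell line, with no stroma, immune cells or gut contents, and because RNA was taken from whole cultures, fewer cells of a kind and less RNA per cell cannot be told apart.

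TRAIL binds death receptors on the cell surface, which gather the adaptor FADD and initiator caspases into a death-inducing complex, and the same receptors can also activate the transcription factor NF-kB. Propionate and acetate are short-chain fatty acids released by propionibacteria and by the gut flora; colon cells take them up as fuel, and propionate is known as an inhibitor of histone deacetylases. A culture supernatant holds these acids together with other bacterial products and spent medium.

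The methods describe 2 separate experiments, each in duplicate, and the labels do not say which replicate numbers belong to which. In each group arrays 1 and 2, and arrays 3 and 4, lay closer to each other than to the remaining arrays: in TRAIL+SN the median gap over genes was 0.11 (log2) within each of those pairs and 0.19 to 0.20 between arrays of different pairs. The p-values therefore measure the spread between arrays, part of which may be technical. The fit treated the 4 arrays of a group as independent, and duplicates of 1 experiment are not, so the p-values may be too small. All TRAIL+SN arrays lay on slide 4 with TRAIL+C3/C2, and the SN and TRAIL arrays lay on slide 3. NT and C3/C2 lay on slide 1 (replicate 1) and slide 2 (replicates 2 to 4). Treatment and slide therefore cannot be told apart between TRAIL+SN and NT, nor between TRAIL+SN and SN or TRAIL alone. The signal at the 75th percentile of an array ran from 745 to 1009 intensity units in NT and from 485 to 546 in TRAIL+SN, 53.4 to 55.4% and 51.0 to 52.0% of probes were well above background, and no spot was saturated. All 10 colon epithelial markers were well above background on the 8 arrays, with summed linear levels of 1026 to 1148 in NT and 1402 to 1444 in TRAIL+SN, against 4.27 to 5.90 and 7.95 to 10.8 for the 11 immune, endothelial and fibroblast markers that could be tested.

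Levels are given as the log2 signal minus the log2 of the 75th percentile of the same array, so that a level of 0 equals that percentile, and differences are TRAIL+SN minus NT on the log2 scale. A gene was called when its fold was at least 2 and its adjusted p under 0.05 in limma, with Benjamini-Hochberg adjustment over 20703 genes. Of these, 3323 genes (16.1%) were higher and 2098 (10.1%) lower in TRAIL+SN than in NT, and for 63.9% of all genes tested the 4 TRAIL+SN arrays lay on 1 side of all 4 NT arrays. Large changes were more often rises, with 1135 genes at least 4-fold higher against 433 lower, and 149 at least 16-fold higher against 13 lower. In 483 of the genes called higher no NT array was well above background, and in 359 of those called lower no TRAIL+SN array was; such genes have only a lower bound on their fold, given below as "at least". The balance of rises and falls depended on the scaling: 2664 against 2869 with the array median, 2926 against 2462 with quantile normalization, 2356 against 1035 with normexp background correction, and 1880 against 4888 with the spike-in controls. The median difference over all genes was 0.04 here, against -0.16, -0.08, 0.23 and -0.48 under those settings. These values are the background for the 30 gene lists below, which hold 767 genes: 703 could be tested, 62 were not well above background on all arrays of any group and 2 had no probe, and 180 of those tested were called higher and 54 lower.

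**Figure D1:**
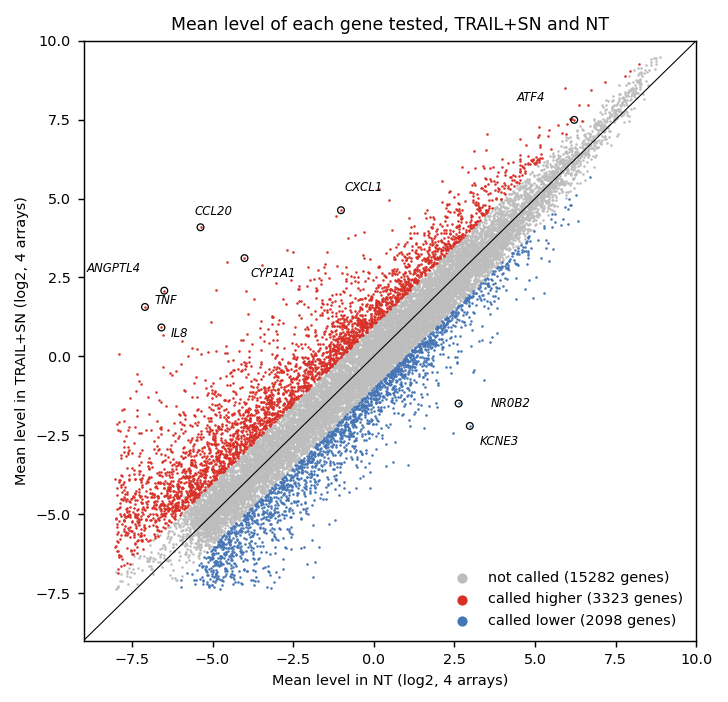
Mean level in the 4 NT arrays (x axis) against mean level in the 4 TRAIL+SN arrays (y axis), both as log2 signal over the 75th percentile, with 1 dot per gene. The 3323 genes called higher are red, the 2098 called lower are blue and the other genes tested are grey; TNF, CCL20, IL8, CXCL1, CYP1A1 and ANGPTL4 lie far above the diagonal, KCNE3 and NR0B2 far below it.

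The receptors and ligands of the TNF family rose widely. Of 20 listed members 18 could be tested and 10 were called higher, with the other 8 called in neither direction and a median difference of 1.24. TNFRSF10B, which encodes the death receptor DR5 of TRAIL, had levels of 2.20, 2.32, 2.17 and 2.26 in the NT arrays and of 4.88, 4.89, 4.51 and 4.55 in TRAIL+SN. The groups were far apart, a 5.53-fold rise (log2 difference 2.47, SE 0.10, limma adjusted p = 8.82e-15), and its mean level was 4.20 with SN and 3.05 with TRAIL, while TRAIL+C3/C2 reached 3.85. TNFRSF10A, the other death-inducing receptor of TRAIL, ran from -0.84 to -0.42 in NT and from -0.64 to -0.33 in TRAIL+SN; the groups overlapped, and its difference of 0.21 was not called and had the opposite sign, -0.31, with spike-in scaling. The decoy receptor TNFRSF10D rose by 1.30, and the decoy TNFRSF10C was at least 2.70-fold higher, with no NT array above background. TNFSF9, the ligand of a costimulatory receptor of T cells, was 31.8-fold higher, at 1.99 to 2.73 in TRAIL+SN against -2.61 to -2.52 in NT.

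The intracellular apoptosis machinery moved less. Of 18 adaptors, caspases and caspase substrates tested, out of 20 listed, 1 was called higher, 4 lower and 13 in neither direction, with a median of -0.22. With spike-in scaling 8 of the 18 and 4888 of all 20703 genes tested were lower. FADD, the adaptor of the death receptors, had levels of 4.92, 4.80, 4.76 and 4.71 in NT and of 3.79, 3.81, 3.71 and 3.69 in TRAIL+SN, so that it fell by 1.05 (SE 0.06, limma adjusted p = 3.68e-12). The executioner CASP6 fell by 1.20. The initiator CASP8, at -0.06, 0.05, 0.12 and -0.04 in NT and -0.73, -0.75, -0.92 and -1.11 in TRAIL+SN, had a difference of -0.89 that did not reach the fold of 2, but came to -1.09 with the array median and -1.41 with spike-in scaling and was then called lower. CASP10 was lower on the probe with the highest mean over all 24 arrays, at -1.03, a value that came to -0.98 without NT replicate 4 and -0.96 without TRAIL+SN replicate 4, yet its other probes gave 0.35 and 1.17, the last called higher. CFLAR, which encodes the caspase-8 inhibitor c-FLIP, differed by 0.54 on the probe with the highest mean over all 24 arrays (levels 0.14 to 0.43 in NT and 0.66 to 0.99 in TRAIL+SN) and by -0.93, -0.70 and -1.14 on 3 others, the second of which was brighter in NT, at 1.06 against 0.27, so that no single direction describes it.

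In the BCL2 family, which sets the threshold for release of mitochondrial death factors, the rises were mostly in death-promoting members. Of 18 tested, out of 21 listed, 7 were called higher and 1 lower, with a median of 0.53. Under spike-in scaling 4 were higher and 3 lower, with a median of 0.01. Of all 20703 genes tested 1880 were higher and 4888 lower under that setting. BBC3, which encodes the BH3-only protein PUMA, had levels of 2.16, 2.04, 2.14 and 2.17 in NT and of 5.59, 5.56, 5.58 and 5.50 in TRAIL+SN. It thus rose 10.8-fold (log2 difference 3.43, SE 0.08, limma adjusted p = 7.53e-19), with no overlap. BMF, another BH3-only gene, rose 14.7-fold from -1.64, -1.61, -1.18 and -1.17 to 2.50, 2.61, 2.40 and 2.39. BIK rose by 2.89, PMAIP1, which encodes NOXA, by 1.48 and BCL2L11, which encodes BIM, by 1.39. Other BCL2L11 probes gave 1.74, called higher, and 0.44, not called. The pore-forming BAK1 rose 2.98-fold, from 1.97 to 2.19 in NT to 3.53 to 3.76 in TRAIL+SN, whereas the related BAX, at 3.51 to 3.65 and 2.97 to 3.15, differed by -0.54 and was not called (-1.06 and called lower with spike-in scaling). BCL2L12 rose by 1.16, although a second probe of it was not called, at 0.22. BCL2L10 was the member called lower, at -2.68. The protective genes MCL1 (difference 0.61) and BCL2L1, which encodes BCL-xL (-0.82), were not called, although the latter came to -1.01 with the array median and -1.34 with spike-in scaling.

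Among 10 inhibitors of apoptosis and their antagonists, 1 was called higher and 2 lower, with a median of -0.01 (0.01 with normexp). The one that rose, BIRC3, is an NF-kB target that encodes the ubiquitin ligase cIAP2, and stood at -1.09, -0.72, -1.36 and -1.56 in NT and at 4.58, 4.53, 4.29 and 4.36 in TRAIL+SN. Its rise was 49.2-fold (log2 difference 5.62, SE 0.12, limma adjusted p = 3.82e-19), and its mean level was 1.63 with SN and 2.18 with TRAIL, while TRAIL+C3/C2 reached 3.84. XIAP, a direct caspase inhibitor, lay at 2.24 to 2.49 in NT and 1.44 to 1.56 in TRAIL+SN; the groups were apart, but its difference of -0.86 was not called on the probe used here. It was called lower with the array median (-1.05), with spike-in scaling (-1.38) and with the mean of its probes (-1.07), and a second probe gave -1.29.

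NF-kB subunits and the inhibitors that NF-kB induces against itself rose in 10 of the 21 genes tested, out of 23 listed, with the other 11 called in neither direction and a median of 0.95. TNFAIP3, which encodes the ubiquitin-editing feedback inhibitor A20, had levels of -3.68, -3.69, -3.64 and -3.86 in NT and of 1.92, 1.89, 1.77 and 1.69 in TRAIL+SN, a rise of 46.4-fold (log2 difference 5.54, SE 0.09, limma adjusted p = 1.52e-20). NFKBIA, which encodes the inhibitor that holds NF-kB in the cytoplasm, rose 7.30-fold, from 2.39, 2.27, 2.44 and 2.33 to 5.22, 5.18, 5.27 and 5.24. Its mean level was 2.05 with SN alone, close to NT, and 4.09 with TRAIL alone. NFKBIE rose by 3.28, NFKB2 by 2.90, RELB by 2.79, MAP3K14, the kinase of the noncanonical pathway, by 2.70, and BCL3 by 2.56. Against SN alone, a comparison in which 0.908% of all genes were called higher, 10 of the 21 genes were called higher, with TNFAIP3, NFKBIA, RELB and BCL3 at 3.53, 3.18, 1.80 and 1.49. NFKBIE and NFKB2 were also among them, at 1.47 and 1.25, and both lost that call with spike-in scaling.

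Promoters of 6 NF-kB targets called higher are shown; of the 8 windows searched for the NF-kB motif, they are those that held a match, so that each rise can be set beside the letters that precede the gene. They are the 250 bases before the annotated start, 5′ to 3′ on the strand of the gene, from RefSeq (GRCh38.p14), in lower case with matches to the NF-kB motif, searched on both strands, in capitals. RefSeq promoter entries were found for 16 of 18 genes looked up. The motif was found in 9.96% of 35116 promoter windows of the same length, and a match is a description of letters, not of binding. The windows are CXCL1 (chr4:73869143-73869392, plus strand), CXCL2 (chr4:74099196-74099445, minus strand), CCL20 (chr2:227813592-227813841, plus strand), BIRC3 (chr11:102317234-102317483, plus strand), TNFAIP3 (chr6:137867009-137867258, plus strand) and NFKBIA (chr14:35404750-35404999, minus strand).
CXCL1: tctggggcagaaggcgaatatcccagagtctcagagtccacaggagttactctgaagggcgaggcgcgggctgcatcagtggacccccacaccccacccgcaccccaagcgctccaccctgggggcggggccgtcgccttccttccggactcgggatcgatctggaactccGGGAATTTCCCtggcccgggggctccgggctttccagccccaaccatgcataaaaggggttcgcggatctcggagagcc
CXCL2: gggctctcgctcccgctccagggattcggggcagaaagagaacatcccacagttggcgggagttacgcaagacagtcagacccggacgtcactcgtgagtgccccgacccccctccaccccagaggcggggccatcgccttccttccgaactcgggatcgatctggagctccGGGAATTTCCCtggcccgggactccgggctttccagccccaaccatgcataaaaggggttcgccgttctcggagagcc
CCL20: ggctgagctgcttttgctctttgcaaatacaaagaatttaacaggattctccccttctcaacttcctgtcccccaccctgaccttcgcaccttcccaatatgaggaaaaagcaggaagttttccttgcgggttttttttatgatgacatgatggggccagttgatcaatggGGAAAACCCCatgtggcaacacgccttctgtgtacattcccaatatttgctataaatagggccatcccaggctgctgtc
BIRC3: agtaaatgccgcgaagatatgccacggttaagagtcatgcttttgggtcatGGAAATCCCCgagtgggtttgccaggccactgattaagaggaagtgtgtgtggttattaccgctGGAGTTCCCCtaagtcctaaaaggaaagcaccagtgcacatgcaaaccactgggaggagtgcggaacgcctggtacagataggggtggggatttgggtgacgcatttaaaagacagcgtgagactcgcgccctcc
TNFAIP3: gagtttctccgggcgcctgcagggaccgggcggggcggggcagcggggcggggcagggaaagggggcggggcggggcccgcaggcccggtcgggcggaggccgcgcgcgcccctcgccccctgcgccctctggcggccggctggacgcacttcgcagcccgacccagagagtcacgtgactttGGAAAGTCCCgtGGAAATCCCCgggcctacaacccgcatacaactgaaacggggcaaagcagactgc
NFKBIA: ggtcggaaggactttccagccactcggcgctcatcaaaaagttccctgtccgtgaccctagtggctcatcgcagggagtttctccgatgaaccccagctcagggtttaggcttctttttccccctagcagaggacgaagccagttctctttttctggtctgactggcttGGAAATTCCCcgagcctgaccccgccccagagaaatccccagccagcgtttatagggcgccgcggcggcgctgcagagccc
The match began 79 bases before the start in CXCL1 and CCL20, 78 in CXCL2 and 81 in NFKBIA. In CXCL1 and CXCL2 matches on both strands overlap each other, shifted by 1 base. BIRC3 held 2 separate matches, which began 199 and 135 bases before the start, and TNFAIP3 held 2, at 67 and 55 bases. The motif was searched as GGG, then A or G, 2 letters of any kind, 2 that are each C or T, and CC. Letters of that spelling were not found in the same windows of TNF and of IL8, listed in RefSeq as CXCL8. Other spellings of NF-kB sites, and sequence further from the start, were not searched.

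Chemokines that attract leukocytes included some of the largest rises of single genes. Of 28 listed, 18 could be tested, 9 were called higher and 1 lower, and the median was 1.22, or 0.76 with the 5 members that lack a group above background set at their bound. CCL20, which attracts dendritic cells and lymphocytes to the gut epithelium, had levels of -5.73, -5.79, -4.85 and -5.13 in NT, of which 2 arrays were above background, and of 4.24, 4.21, 3.96 and 3.95 in TRAIL+SN. The groups did not overlap and the log2 difference was 9.46 (SE 0.23, limma adjusted p = 1.37e-18). IL8, a neutrophil chemokine, lay at -7.23, -6.06, -7.04 and -6.02 in NT, none above background, and at 0.93, 0.86, 0.95 and 0.93 in TRAIL+SN, at least 99.6-fold higher (limma adjusted p = 1.77e-14). CXCL1, of the same receptor family, rose 50.2-fold from -0.89, -0.90, -1.03 and -1.25 to 4.98, 4.88, 4.32 and 4.35. CXCL2 rose 66.9-fold, from -2.77, -2.83, -2.50 and -2.67 to 3.57, 3.55, 3.21 and 3.16, and CXCL3 rose 14.4-fold. With SN alone CXCL1, CXCL2 and CXCL3 had mean levels of -2.01, -2.43 and -3.83, close to or below NT, and with TRAIL alone of 2.83, 0.35 and -1.11, so that the TRAIL+SN arrays stood above both single treatments. CXCL5 was the chemokine called lower, at -2.42, -1.66, -1.45 and -1.51 in NT and -4.06, -4.10, -4.11 and -3.85 in TRAIL+SN, but its mean was -3.97 for SN, -3.98 for TRAIL and -3.51 for TRAIL+C3/C2, and -1.68 for C3/C2, which is also the split between slides 3 and 4 and slides 1 and 2.

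Cytokines and adhesion molecules also included large rises. TNF, the founding cytokine of the family to which TRAIL belongs, had levels of -7.07, -7.86, -6.59 and -6.86 in NT, none above background, and of 1.90, 1.90, 1.20 and 1.27 in TRAIL+SN. It was at least 156-fold higher (limma adjusted p = 1.83e-17), with mean levels of -4.17 with SN, -1.47 with TRAIL, -5.18 with C3/C2 and 1.41 with TRAIL+C3/C2. Of 23 interleukins, growth factors and adhesion molecules tested, out of 31 listed, 15 were called higher and 1 lower, with a median of 1.18 (1.17 with bounds). IL17C, an epithelial interleukin, lay at -5.53, -4.60, -4.75 and -4.74 in NT and at 2.40, 2.42, 1.71 and 1.84 in TRAIL+SN, a 128-fold rise (log2 difference 7.0, SE 0.21). IL1B was at least 28.7-fold higher, IL1A at least 5.69-fold and CSF2, the granulocyte-macrophage growth factor, at least 14.6-fold. IL32 rose by 5.24, ICAM1, which binds leukocyte integrins, by 4.31, IL11 by 4.10 and the angiogenic factor VEGFA by 2.95. A second probe of VEGFA was not called. The EGF-family ligands HBEGF, AREG and EREG rose by 3.23, 2.93 and 2.42. Against SN alone 7 of the 23 genes were called higher, IL17C by 4.85 and ICAM1 by 3.91 among them.

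**Figure D2:**
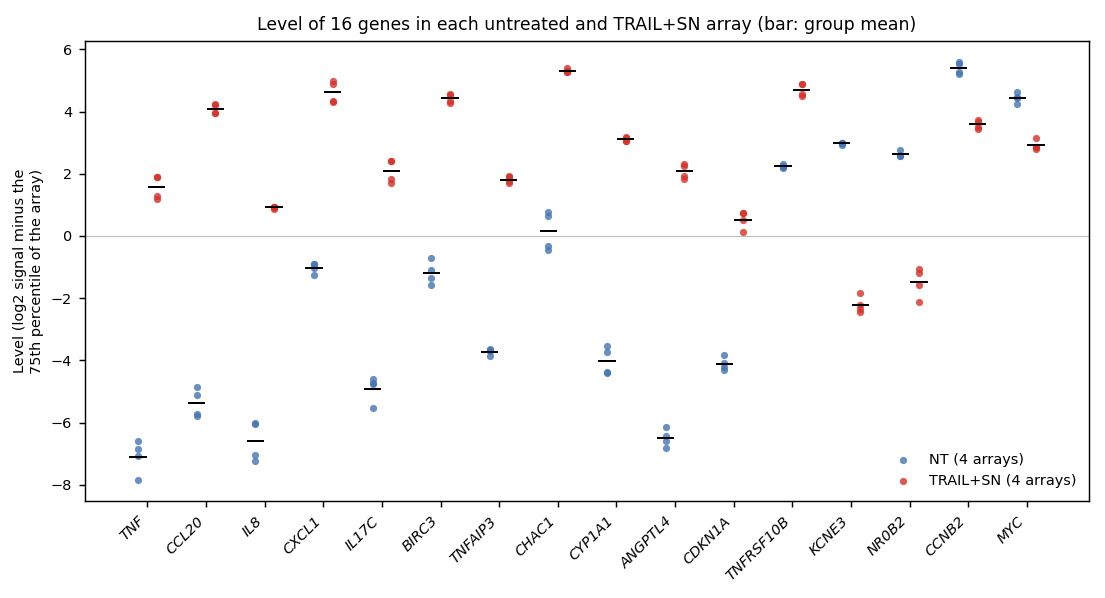
Level of 16 genes in each of the 4 NT and 4 TRAIL+SN arrays (y axis, log2 signal over the 75th percentile); dots are arrays and bars are group means. In each panel the TRAIL+SN arrays lie on 1 side of the NT arrays, above them for TNF, CCL20, IL8 and TNFRSF10B and below them for KCNE3, NR0B2, CCNB2 and MYC.

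Of 33 interferon and antigen presentation genes tested, out of 34 listed, 11 were called higher and 1 lower, with a median of 0.46 (-0.06 with spike-in scaling). IRF1, a transcription factor of interferon responses, rose 6.90-fold from 0.09, -0.19, -0.31 and -0.21 to 2.75, 2.77, 2.41 and 2.59. SOCS3, a feedback inhibitor of cytokine signalling, was at least 14.4-fold higher and its relative SOCS1 rose by 2.25. CD274, which encodes the checkpoint ligand PD-L1, was at least 5.89-fold higher, at -2.98, -2.83, -3.12 and -3.31 in TRAIL+SN. The antigen transporter TAP1 rose by 1.31 and the immunoproteasome subunit PSMB9 by 1.25. IFIT3, an interferon-induced gene, was the member called lower at -1.20 (SE 0.38), with arrays 1 and 2 above arrays 3 and 4 in both groups; with those pairs averaged the call was lost (limma adjusted p = 0.0995).

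Immediate early genes and the phosphatases that switch off MAP kinases had the highest share of members called higher among the 30 lists: 21 of the 29 genes tested, out of 31 listed, were called higher and 1 lower, with a median of 1.61. NR4A3, an orphan nuclear receptor, was at least 12.8-fold higher and DUSP10 at least 8.62-fold. DUSP5 rose by 4.07, FOSB by 3.64, EGR2 by 3.38 and DUSP1 by 3.24. FOS rose 7.37-fold, from 0.37, 0.33, 0.47 and 0.38 to 3.06, 3.16, 3.48 and 3.38, and JUN 2.83-fold. EGR1 rose 6.99-fold and its TRAIL+SN arrays were split, 3.07 and 3.14 against 4.05 and 3.95. MYC, the growth-promoting transcription factor, was the member called lower: it lay at 4.47, 4.26, 4.62 and 4.43 in NT and at 2.79, 2.85, 3.16 and 2.88 in TRAIL+SN, and fell by 1.53 (SE 0.11, limma adjusted p = 1.44e-10).

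The integrated stress response, in which ATF4 is translated when amino acids are short or proteins misfold, was the list, of 30, with the largest share of members called different between TRAIL+SN and TRAIL+C3/C2. Against NT, 18 of the 31 genes tested, out of 33 listed, were called higher and 1 lower, with a median of 1.12. CHAC1, which degrades glutathione, had levels of -0.32, -0.45, 0.64 and 0.78 in NT and of 5.39, 5.29, 5.31 and 5.29 in TRAIL+SN, a rise of 35.6-fold (log2 difference 5.16, SE 0.35, limma adjusted p = 2.83e-11). ATF3 rose 22.0-fold, from 0.08, 0.06, 0.90 and 0.88 to 4.84, 4.82, 5.03 and 5.08, and DDIT3, which encodes the pro-apoptotic factor CHOP, 12.1-fold, from -1.10, -1.31, -0.84 and -0.63 to 2.52, 2.50, 2.74 and 2.76. Other ATF3 probes gave 4.14 and 4.27, called higher, and 0.62, not called. ASNS, asparagine synthetase, rose 5.06-fold, from 4.40, 4.27, 4.79 and 4.73 to 6.86, 7.0, 6.85 and 6.82. In NT the second pair of arrays was higher for all of these genes, and the TRAIL+SN arrays lay close together. ATF4 itself rose by 1.28 (0.76 with spike-in scaling, below the fold of 2), CBS of cysteine synthesis by 5.41, and SESN2 and DDIT4, which restrain mTOR, by 2.97 each. TRIB3, a target of ATF4 and CHOP, differed by 0.69 and was not called, and ATF5 was called lower at -2.29.

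Both co-treatments lay on slide 4, so their difference is free of the slide. Over all genes 202 (0.976%) were higher and 529 (2.56%) lower in TRAIL+SN than in TRAIL+C3/C2, a balance that was 363 against 348 with the array median, 301 against 441 with quantile normalization and 434 against 304 with the spike-in controls. Of the 31 stress response genes, 11 were higher and 1 lower. CHAC1 had a mean level of 2.21 with TRAIL+C3/C2 and was 3.11 higher with TRAIL+SN (limma adjusted p = 7.2e-07). ATF3 was higher by 2.56, DDIT3 by 2.56 and ASNS by 2.36. With SN alone their mean levels were 5.20, 4.26, 2.81 and 6.76, none called different from TRAIL+SN, and with TRAIL alone 0.85, 1.27, -0.45 and 4.73.

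Promoters of CHAC1 (chr15:40953221-40953470, plus strand) and ASNS (chr7:97872409-97872658, minus strand) are shown as the 2 of 4 stress response windows searched, those of CHAC1, ASNS, DDIT3 and TRIB3, that held a match to the amino acid response element. The capitals mark matches to TGATGNAAN, the letters of that element, on either strand, in the same RefSeq windows (GRCh38.p14).
CHAC1: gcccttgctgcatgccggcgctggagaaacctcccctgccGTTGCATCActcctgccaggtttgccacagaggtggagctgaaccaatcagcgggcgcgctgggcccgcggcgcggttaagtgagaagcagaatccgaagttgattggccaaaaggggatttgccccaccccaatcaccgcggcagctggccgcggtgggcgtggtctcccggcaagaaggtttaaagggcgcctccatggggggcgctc
ASNS: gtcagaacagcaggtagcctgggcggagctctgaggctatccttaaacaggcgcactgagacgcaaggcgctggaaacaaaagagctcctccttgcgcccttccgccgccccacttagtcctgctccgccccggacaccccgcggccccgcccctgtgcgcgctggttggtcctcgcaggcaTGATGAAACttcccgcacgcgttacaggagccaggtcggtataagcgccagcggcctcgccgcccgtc
The match began 210 bases before the start of CHAC1, on the opposite strand, and 68 bases before that of ASNS; 3.13% of all promoter windows hold these letters. They were not found in the windows of DDIT3 and TRIB3. Sequence further from the start, and other spellings of the element, were not searched.

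The aryl hydrocarbon receptor pathway, a sensor of planar aromatic compounds, also distinguished the 2 co-treatments. Of 11 genes tested, out of 13 listed, 5 were called higher and 1 lower against NT (median 0.67), and 4 were higher against TRAIL+C3/C2. CYP1A1, the most inducible target of the receptor, measured by a probe at chr15:75012562-75012621 (hg19), lay at -3.54, -3.72, -4.40 and -4.38 in NT and at 3.06, 3.06, 3.15 and 3.19 in TRAIL+SN. Its rise was 139-fold (log2 difference 7.12, SE 0.25, limma adjusted p = 4.69e-16). Its mean level was 3.82 with SN, -4.16 with TRAIL, -0.98 with C3/C2 and -1.59 with TRAIL+C3/C2, so that TRAIL+SN exceeded TRAIL+C3/C2 by 4.71 (limma adjusted p = 2.3e-11). CYP1B1, a related enzyme, rose 3.06-fold against NT and was 2.91 higher than with TRAIL+C3/C2, where its mean of 0.79 was below the NT mean of 2.09. TIPARP and AHRR, which limit the receptor, rose by 2.25 and 2.07, and AHR itself by 1.28. The same RefSeq windows were searched for TNGCGTG, the letters taken for the response element of the receptor. A match was found in AHRR, beginning 32 bases before the start, and none in CYP1A1, TIPARP and ANGPTL4. Of all promoter windows 4.52% hold these letters. Sequence further than 250 bases before the start was not searched, so a gene without a match may hold the element there.

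Among inhibitors of cyclin-dependent kinases and growth arrest genes, 7 of 27 were called higher and 1 lower, with a median of 0.14. The median was -0.05 with the array median and -0.38 with spike-in scaling. Under the latter 5 of the 27 and 4888 of all 20703 genes tested were lower. CDKN1A, which encodes p21, measured at chr6:36652178-36652237 (hg19), lay at -4.09, -4.31, -3.83 and -4.22 in NT and at 0.73, 0.75, 0.12 and 0.51 in TRAIL+SN. It rose 24.9-fold (log2 difference 4.64, SE 0.12, limma adjusted p = 4.59e-18), with mean levels of 0.16 with SN, -2.80 with TRAIL, -1.43 with C3/C2 and -0.16 with TRAIL+C3/C2. GADD45B, of the DNA damage and stress response, rose 21.2-fold, from -0.58, -0.37, -0.71 and -0.64 to 3.85, 3.74, 3.97 and 3.77. CDKN2B, which encodes p15, rose 11.4-fold and CDKN1C, which encodes p57, 5.97-fold, the latter remaining below its mean of 5.20 with TRAIL+C3/C2.

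Of 38 mitosis genes, 10 were called lower and the other 28 in neither direction, with a median of -0.61. Of 45 DNA replication genes 8 were called lower and 1 higher, with a median of -0.37. With spike-in scaling 4888 of all 20703 genes tested were called lower, and the median difference over all genes was -0.48. Under that setting 22 mitosis genes (median -1.13) and 19 replication genes (median -0.89) were called lower. CCNB2, a mitotic cyclin, lay at 5.61, 5.54, 5.26 and 5.20 in NT and at 3.51, 3.45, 3.73 and 3.66 in TRAIL+SN, and fell by 1.81 (SE 0.10, limma adjusted p = 4.48e-13). AURKA, a spindle kinase, fell by 1.85, the centromere histone CENPA by 1.95, and KIF20A, a kinesin of cytokinesis, by 2.16. GINS3, a subunit of the replicative helicase, fell 7.43-fold, from 2.02, 1.98, 2.08 and 1.93 to -0.84, -1.04, -0.71 and -0.98, and CDC7, the kinase that fires replication origins, fell by 1.87. MCM7, PCNA and CDK1 were not called, with differences of -0.17, -0.70 and -0.34. KIF20A was also called lower than with TRAIL+C3/C2, by 1.22. In the list of G1 cyclins and their kinases 1 of 17 genes tested, out of 18, was called higher (median -0.16). In ribosome biogenesis 1 of 31 was called higher and 2 lower (median -0.12). In each of these lists 6 genes were lower with spike-in scaling.

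**Figure D3:**
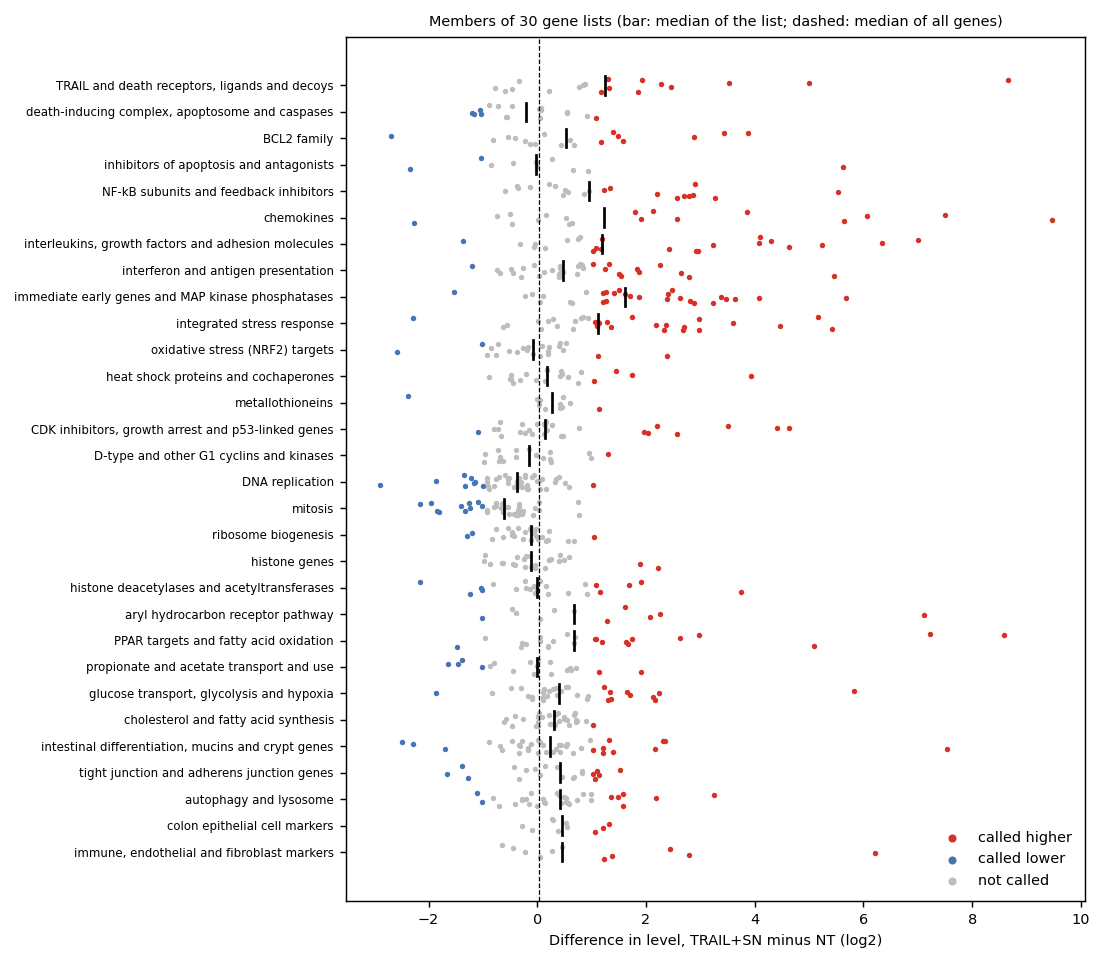
Log2 difference, TRAIL+SN minus NT (x axis), of each member tested in 30 gene lists (y axis), with 1 dot per gene, a bar at the median of each list and a dashed line at the median of all genes tested, 0.04. The immediate early genes have the highest median, 1.61, and the mitosis genes the lowest, -0.61.

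Targets of PPAR and genes of fatty acid burning, a fuel route of colon cells, included the largest bounded rise. Of 25 tested, out of 26 listed, 11 were called higher and 1 lower, with a median of 0.68. ANGPTL4, a secreted inhibitor of lipoprotein lipase, lay at -6.43, -6.14, -6.82 and -6.59 in NT, none above background, and at 2.31, 2.26, 1.94 and 1.83 in TRAIL+SN. It was at least 224-fold higher (limma adjusted p = 5.14e-19), with mean levels of 1.86 with SN, 1.17 with C3/C2 and 1.62 with TRAIL+C3/C2 against -6.92 with TRAIL. CREB3L3, a liver and intestine transcription factor of lipid metabolism, was at least 83.8-fold higher, and PLIN5, a lipid droplet coat protein, rose 33.9-fold. CPT1A, which admits fatty acids to mitochondria, rose by 1.20. In glucose transport, glycolysis and hypoxia 10 of 32 genes tested, out of 35 listed, were called higher and 1 lower, with a median of 0.40 (-0.12 with spike-in scaling). SLC2A4, the insulin-responsive glucose transporter, was at least 12.6-fold higher, SLC2A1 rose by 1.35 and HK2 by 1.33. TXNIP, which curbs glucose uptake, was the member called lower, at 2.47, 2.41, 1.86 and 1.72 in NT and 0.26, 0.33, 0.40 and 0.01 in TRAIL+SN. Its mean was 0.20 with SN but 2.52 with C3/C2 and 2.38 with TRAIL+C3/C2, and it was 2.13 lower in TRAIL+SN than in the latter (limma adjusted p = 2.5e-07).

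Transport and use of propionate and acetate showed 2 members called higher and 4 lower of 19 tested, out of 24 listed, with a median of 0.00 (0.20 with normexp). SLC16A3, a monocarboxylate exporter, rose 3.74-fold, and FFAR2, a receptor for short-chain fatty acids, fell by 1.46. Of 23 histone deacetylases and acetyltransferases tested, out of 24 listed, 5 were called higher and 4 lower, with a median of -0.01 (0.09 with normexp). HDAC10 rose by 1.91 and SIRT2 by 1.69, while the acetyltransferases KAT5 and CREBBP fell by 2.15 and 1.23. Of 25 histone genes tested, out of 26, the linker histones H1F0 and H1FX were called higher, by 2.23 and 1.88. H1F0 lay at 2.69, 2.72, 2.51 and 2.56 in NT and at 4.92, 5.06, 4.66 and 4.74 in TRAIL+SN, with means of 4.69 with SN, 4.68 with C3/C2 and 2.60 with TRAIL.

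Other stress programmes were near the background. Of 23 NRF2 targets tested, out of 25, 2 were called higher and 2 lower (median -0.09). With spike-in scaling 7 of them and 4888 of all 20703 genes tested were lower. HMOX1, heme oxygenase, rose 5.23-fold, from 0.07, 0.02, 0.47 and 0.50 to 2.55, 2.54, 2.73 and 2.78, and KEAP1, the NRF2 inhibitor, fell 5.97-fold, from 2.25, 2.20, 2.21 and 2.26 to -0.60, -0.64, -0.05 and -0.09. Of 21 heat shock genes tested, out of 22, 4 were called higher (median 0.19, but -0.01, -0.05 and -0.33 with the array median, quantile and spike-in scalings), HSPA12A by 3.94 among them. Of 12 metallothionein genes tested, out of 13, 1 was called higher and 1 lower (median 0.28, or -0.24 with spike-in scaling), MT1M falling by 2.38. In autophagy and lysosome 6 of 32 were called higher and 2 lower (median 0.42, or -0.10 with spike-in scaling): the autophagosome proteins MAP1LC3A and MAP1LC3B rose by 3.24 and 1.57 and the cargo receptor SQSTM1 by 1.57. In cholesterol and fatty acid synthesis 1 of 31 was called higher (median 0.30, or -0.22 with spike-in scaling).

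Genes of the intestinal lineage moved both ways. Of 38 tested, out of 48 listed, 9 were called higher and 3 lower. The median was 0.23, or 0.13 with bounds and -0.29 with spike-in scaling. That scaling called 4 of them higher and 6 lower, against 1880 and 4888 of all 20703 genes tested. The membrane mucins MUC17 and MUC12 rose by 2.32 and 2.17, the crypt receptor EPHB2 by 2.34 and the intestinal transcription factor CDX2 by 1.32. The stem cell receptor LGR5 lay at -2.67, -2.51, -2.76 and -2.50 in NT and at -5.20, -5.77, -5.13 and -4.29 in TRAIL+SN, where 2 arrays were above background, and fell by 2.49. Its partner in crypt stem cells, ASCL2, fell by 1.69. Of 20 junction genes tested, out of 21, 5 were called higher and 3 lower (median 0.41, or -0.11 with spike-in scaling). The 5 rises became 1, 2 and 1 with the array median, quantile and spike-in scalings. CDH1, E-cadherin, was 1.06 higher (0.86 with the array median and 0.97 with quantile normalization, below the fold of 2), and the pore-forming CLDN2 was lower by 1.65.

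Of the 10 colon epithelial markers 3 were called higher, CDX2, CDH17 and CDH1, and the other 7, KRT20 and EPCAM among them, in neither direction. KRT8 was also not called, at 0.26, but its other probes gave -1.90, called lower, and 0.25, not called. Of the 10 markers 2 were called higher with the array median, with quantile normalization and with normexp. None was with spike-in scaling, where their median was -0.06. Of 16 immune, endothelial and fibroblast markers 11 could be tested and 5 were called higher, or 3 with spike-in scaling, where 1 was lower, and 3 with normexp. COL1A1, a collagen chain of fibroblasts, lay at -7.12, -6.24, -6.79 and -5.99 in NT, none above background, and at -0.11, 0.11, -0.61 and -0.67 in TRAIL+SN, at least 42.3-fold higher. Its mean was -0.55 with SN, -1.42 with C3/C2 and -1.38 with TRAIL+C3/C2 against -6.67 with TRAIL. The other defining fibroblast markers, COL1A2, COL3A1, DCN and PDGFRB, were not well above background on all arrays of any group, nor was CD3E, and were not tested. CSF1R was at least 2.39-fold higher, with no NT array above background, and PECAM1 and CD14 were called higher by 1.37 and 1.23. A second probe of PECAM1 was not called, at 0.76. The 6 not called ran from -0.64 for ITGAM to 0.46 for CD79A, although a second probe of VWF (-0.44) was called higher at 1.38. All groups are cultures of 1 cancer cell line, and the source of these signals was not tested.

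By size alone, the largest rises among genes above background on all 8 arrays included those of DACT3, CYP1A1, IL17C, CEND1, CXCL2, KREMEN2, FSCN1, CXCL1, BIRC3, TNFAIP3 and NEURL3, with log2 differences from 7.54 down to 5.38. DACT3, an inhibitor of Wnt signalling, lay at -2.28, -5.19, -5.55 and -5.24 in NT, replicate 1 standing apart, and at 3.08, 3.06, 2.91 and 2.87 in TRAIL+SN. CEND1, which drives neuronal precursors out of the cell cycle, rose 81.6-fold, KREMEN2, a Wnt co-receptor antagonist, 66.2-fold, and FSCN1, an actin bundler, 57.2-fold. Among bounded rises, SH2D3C was at least 55.2-fold higher. The largest fall was that of KCNE3, a potassium channel subunit that supports chloride secretion, measured at chr11:74166486-74166545 (hg19). KCNE3 lay at 2.98, 3.00, 3.00 and 2.93 in NT and at -2.43, -2.35, -1.82 and -2.20 in TRAIL+SN, a 36.3-fold fall (log2 difference -5.18, SE 0.12, limma adjusted p = 5.67e-19). Its mean was -1.76 with SN, 2.62 with TRAIL, -0.54 with C3/C2 and -0.86 with TRAIL+C3/C2. NR0B2, the nuclear receptor SHP that represses bile acid synthesis, fell 17.4-fold, from 2.62, 2.56, 2.58 and 2.77 to -1.59, -2.11, -1.07 and -1.21. STX19, NOX1, the superoxide-producing oxidase of the colon, B3GALT4 and PATZ1 fell by 3.09, 3.08, 3.04 and 3.03.

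Several of the other large falls followed the slides. PABPC3, NACAP1, DNAJA1P5, ZNF90 and HNRNPCL1 were low in all groups of slides 3 and 4 and high in NT and C3/C2, and in NT their replicate 1, on slide 1, lay below replicates 2 to 4. PABPC3, for example, was at 2.44, 3.56, 3.90 and 3.80 in NT and at -0.87 to -0.59 in TRAIL+SN, with means of -0.40 with TRAIL and 3.60 with C3/C2. ITGA2, AKR1C4 and ANP32C had the same split. Genes that differed at least 2-fold and the same way between slides 1 and 2 in both NT and C3/C2 numbered 63 of all tested, 2 of those called higher and 32, or 1.53%, of those called lower. Whether slide has a part in these falls was not tested.

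Side by side with the single treatments, the rises fell into different patterns. TRAIL+SN and SN differed in few genes, 188 higher (0.908%) and 34 lower (0.164%), a count that came to 148 and 16 with arrays 1 and 2 and arrays 3 and 4 averaged and to 50 and 672 with spike-in scaling. TRAIL+SN and TRAIL differed in 2961 higher (14.3%) and 1673 lower (8.08%), with 2130 against 2945 under the array median and 2266 against 2616 under spike-in scaling. These comparisons share the TRAIL+SN arrays with those against NT. SN and TRAIL lay on slide 3 and TRAIL+SN on slide 4, so treatment and slide cannot be told apart here either. For ANGPTL4, CREB3L3, CEND1, KREMEN2, FSCN1, BMF and GADD45B the difference from SN ran from -0.09 to 0.24 and was not called, and their C3/C2 means ran from 0.50 to 3.65, against 0.67 to 3.83 in TRAIL+SN. For TNF, CCL20, CXCL2 and CXCL1 TRAIL+SN exceeded SN by 5.74, 7.21, 5.81 and 6.64 and TRAIL by 3.04, 3.79, 3.02 and 1.80, all called. IL8 was not above background on any SN array and was at least 92.3-fold higher than with SN, and exceeded TRAIL by 3.18. BIRC3, TNFAIP3 and NFKBIA exceeded SN by 2.81, 3.53 and 3.18 and TRAIL by 2.26, 2.65 and 1.14; the last call was lost with the array median (0.84) and with spike-in scaling (0.90). BBC3 stood 1.05 above SN and 2.91 above TRAIL; the first of these calls was lost with the array median (0.98), quantile normalization (0.97) and spike-in scaling (0.48). Whether the joint response differs from the sum of the single responses was not tested.

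**Figure D4:**
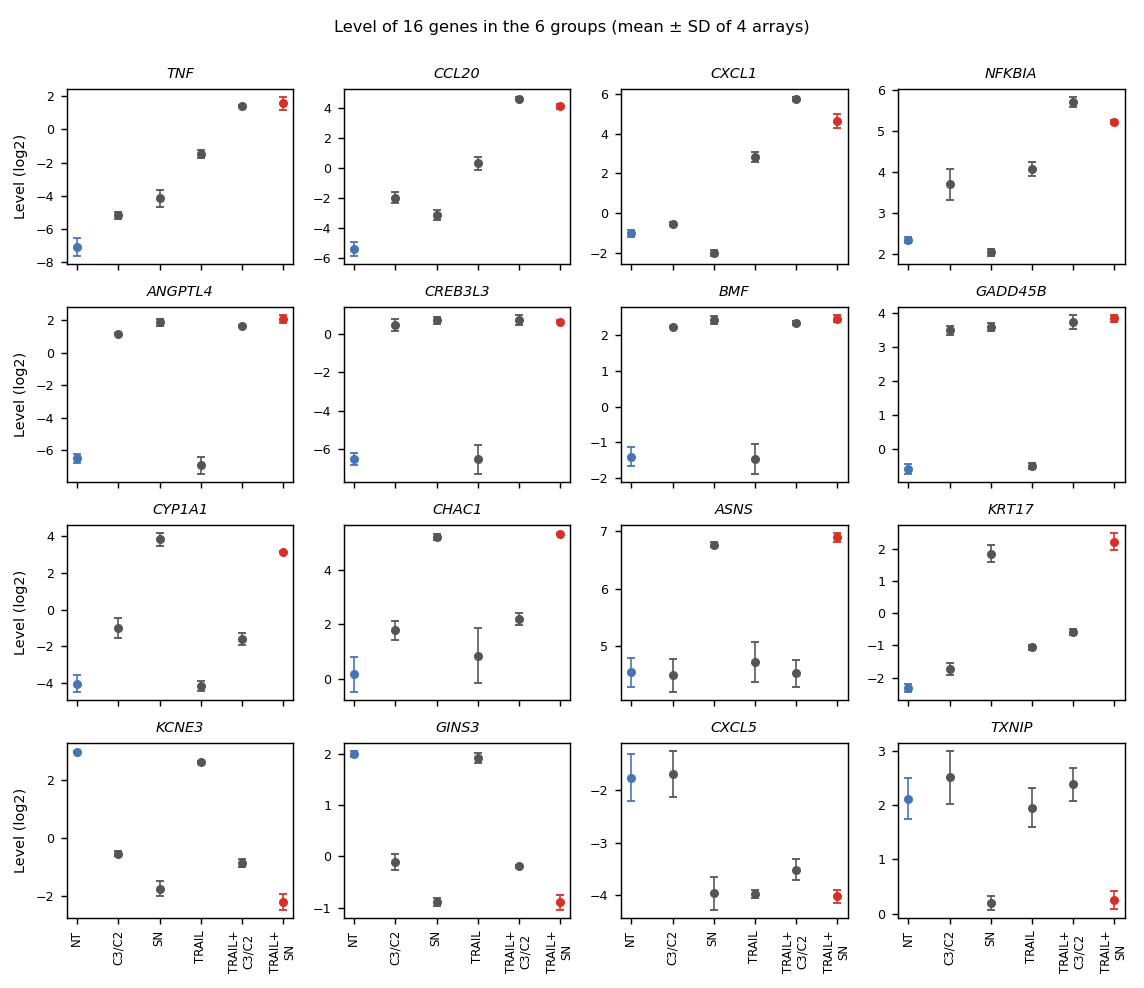
Mean level ± SD of 4 arrays in each of the 6 groups for 16 genes (y axis, log2 signal over the 75th percentile). TNF, CCL20, CXCL1 and NFKBIA are highest in the co-treatments, ANGPTL4, CREB3L3, BMF and GADD45B are high wherever SN or C3/C2 was given, CYP1A1, CHAC1, ASNS and KRT17 are high wherever SN was given, and CXCL5 splits by slide.

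Beyond the stress and aryl hydrocarbon receptor genes, the largest differences from TRAIL+C3/C2 included 2 keratin genes and a keratin pseudogene. KRT17, a keratin of stressed and basal epithelium, lay at -2.15, -2.30, -2.43 and -2.39 in NT and at 2.38, 2.51, 1.91 and 2.09 in TRAIL+SN, a 23.3-fold rise, and exceeded TRAIL+C3/C2 by 2.81 (limma adjusted p = 2.2e-12). KRT14 exceeded it by 2.78 and the pseudogene KRT42P by 2.65; these sequences are so alike that their probes may share signal, and a second KRT42P probe differed from NT by -0.23, in place of 3.83. IL1A was 1.19 higher, a call lost with normexp (0.41). In the other direction FBXO2, of glycoprotein turnover, was lower by 2.97, with TRAIL+SN levels of -1.60, -1.65, -2.12 and -2.04 and a TRAIL+C3/C2 mean of 1.12. CXCL1 was lower by 1.11, a call lost with the array median and with spike-in scaling, and the falls of KCNE3 and NR0B2 were deeper by 1.34 and 1.76.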

How the data were processed

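HT29 RNA from 6 groups of 4 samples was hybridised by the authors to 1-colour Agilent arrays. Per the file headers, Feature Extraction 10.7.3.1 subtracted background and wrote the processed intensity of each spot, and this deposited intensity was the starting value. The table of the whole series holds the authors' ratio of each signal to the median of its array. Neither those ratios nor its 24 flag columns entered any fit. The array median alternative was computed from the deposited intensities. Control spots and flagged outlier spots were left out, log2 intensity was set relative to the 75th percentile of its array, and spots of a probe were averaged. A probe was kept (27957 of 50599) where some group had all its 4 arrays well above background, and the probe with the highest mean level stood for its gene. limma 3.58.1 in R 4.3.3 (lmFit, eBayes) fitted 6 group means to 24 arrays, with 18 residual degrees of freedom and no block. The procedure was tested on simulated arrays with independent noise, which cannot check for dependent duplicates or slide effects. The median standard error was 0.11. It took the 4 arrays of a group as independent, which duplicates of the same experiment are not, so it may be too small. Precision may be limited by the number of separate experiments rather than by the number of arrays.

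Groups came from the labels. The comparison groups, gene lists and members were chosen with earlier results of these data known, so lists have counts and medians but no p. Genes named, 173 in all, were the 12 largest rises and falls above background on all 8 arrays, the 6 largest bounds each way, the apoptosis genes of the study's expression table, up to 4 members called each way per list with its key members, and the 6 largest differences each way from TRAIL+C3/C2; other list members, such as RELB, FOS and ASNS, were chosen for the text after their values were seen. Some genes of the rule and the lists are not reported here. A bound compares the brighter group with, per array, the higher of the lowest signal above background and the dim probe's own. Alternatives were other scalings and background correction, filters, the mean of probes, replicate or slide blocks, leaving out single arrays and, chosen after seeing the data, averaging arrays 1 with 2 and 3 with 4. Gene names are those of the array design, probe positions are hg19, and promoters are those of RefSeq (GRCh38.p14).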

Additional observations from a re-analysis of the deposited data

Results flagged for a closer look

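Among 346 groups of 4 arrays (NT and TRAIL+SN for each of 173 named genes), 15 held 1 array that stood apart by Dixon's criterion, where chance gives about 1 in 20; 6 were in NT, 4 of them in replicate 1, and 9 in TRAIL+SN. In NT, replicate 1 had a level of -2.28 for DACT3 against -5.55 to -5.19 in the other arrays, of 1.18 for DNAJA1P5 against 2.16 to 2.22, of -5.53 for IL17C against -4.75 to -4.60, and of 0.77 for MT1M against 1.34 to 1.44. NT replicate 2 was at -8.02 for IL1A, and NT replicate 3 at -6.85 for DUSP10, both below background. NT replicate 1 is also the only NT array on slide 1, and the part of the slide was not tested.

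In TRAIL+SN, replicate 1 stood apart for CSF1R, at -4.09, and for NEU1, a lysosomal sialidase, at 5.73. Replicate 2 did so for HDAC5, at 1.11, and for ITGA2, at -7.09. Replicate 3 did so for AKR1C4 at -4.34, FKSG2 at -6.25 and ULK2 at -6.90, and replicate 4 for SOCS3 at -2.14 and TNFRSF10A at -0.64. For TNFRSF10A the other arrays lay between -0.38 and -0.33, and replicate 4 is the array that overlaps the NT range.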

How the results depend on the processing

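The counts given for NT are genes higher and lower in TRAIL+SN than in NT, with the same order for SN, TRAIL+C3/C2 and TRAIL. With genes above background on all 8 arrays of a comparison, the counts that moved by over 1.5 times were 122 and 2 for SN, 251 lower for TRAIL+C3/C2 and 1959 higher for TRAIL. Scaling by the array median gave 363 and 348 for TRAIL+C3/C2 and 2945 lower for TRAIL, and quantile normalization 60 lower for SN. Without a filter SN had 445 and 57. Without a minimum fold the counts were 7745 and 6774 for NT, 2522 and 1626 for SN, 7369 and 6550 for TRAIL, and 3298 and 4491 for TRAIL+C3/C2. Normexp gave 1035 lower for NT, 71 and 0 for SN, 1659 and 845 for TRAIL, and 70 and 83 for TRAIL+C3/C2, and spike-in scaling 1880 and 4888 for NT, 50 and 672 for SN, 434 and 304 for TRAIL+C3/C2, 2616 lower for TRAIL. Averaging arrays 1 with 2 and 3 with 4, chosen after seeing the data, gave 16 lower for SN. Leaving out 1 array gave 3224 to 3407 and 2056 to 2125 for NT, 162 to 212 and 28 to 42 for SN, 2881 to 3051 and 1653 to 1708 for TRAIL, and 183 to 231 and 506 to 566 for TRAIL+C3/C2. The sign turned for TNFRSF10A with spike-in scaling (-0.31), for XAF1 (0.072), IL33 (0.17), SLC16A6 (0.20), SLC5A12 (0.20) and ULK2 (0.20) with normexp, and for CFLAR (-0.56) and CASP10 (0.16) with the mean of probes. IL33 was called lower at -1.38, but came to -0.99 without TRAIL+SN replicate 2, and ULK2 came to -0.72 without replicate 3. Where no construction shows it, the cause was not tested.

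Replicate numbers were not taken to pair the arrays in the main fit. Deviations of same-numbered NT and TRAIL+SN arrays correlated at 0.15, 0.17, 0.22 and 0.09, and TRAIL+SN replicate 4 correlated best with NT replicate 3. Arrays 1 and 2 of NT correlated with arrays 1 and 2 of TRAIL+SN at 0.09 to 0.17. For arrays 3 and 4 of both groups the range was 0.04 to 0.22. Between arrays of different pairs it was -0.24 to -0.01. The main fit took no account of pairs that the groups may share. With the replicate block the counts were 3327 and 2100 for NT, 194 and 36 for SN, 2962 and 1676 for TRAIL, and 207 and 536 for TRAIL+C3/C2. With slide as a random block (correlation 0.03) 3310 of the higher and 2090 of the lower genes remained called. That block cannot separate slide from treatment, because TRAIL+SN and NT share no slide. Low signal limits 483 rises and 359 falls to a bound.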
